A study of Mus musculus with 6 samples.

Results

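Cxcr5 and 3 regulators of G protein signalling, Rgs18, Rgs16 and Rgs8, were described in a mouse pro-B cell line in which the transcriptional repressor Gfi1b was switched on for 12 h. The 4 genes were found by their symbols in the authors' deposited table of changed transcripts, which lists 251 of the 35557 probe sets measured and names 225 different genes. Each gene had 1 row there, and whether other probe sets outside the table measure the same genes is not known here. They were thus selected on the comparison of tamoxifen with untreated cells, since every row of that table has a fold of at least 1.503 and a p-value of at most 0.0451 in it. The changes of the 4 genes between these groups are therefore a description. Where the calls of a fit over all probe sets are counted for them, they support nothing further.

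The cells were a line made with Abelson murine leukaemia virus, whose v-Abl kinase keeps B cell precursors growing in culture. All 6 cultures carried a retrovirus encoding Gfi1b fused to the part of the oestrogen receptor that binds the hormone, so that the controls hold the fusion too. In 3 cultures tamoxifen had been added to the medium for 12 h to activate the fusion, and the other 3 were left without it. The sample titles write the drug as OHT, and tamoxifen here stands for the drug so named. The submitters call the cultures biological replicates, and each was measured on a one-colour array. Cells that lack the fusion but were given tamoxifen were not analysed here, so that the drug and the fusion cannot be told apart. How many clones the line holds was not given in the sources used here.

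Chemokine receptors are cell surface receptors that act through heterotrimeric G proteins: a bound ligand makes the G protein alpha subunit take up GTP, and the signal lasts until that GTP is cleaved. RGS proteins speed this cleavage and so shorten the signal, mainly that of the Gi and Gq classes of alpha subunit. CXCR5 is the receptor for the chemokine CXCL13 and guides mature B cells into lymphoid follicles. RGS18, RGS16 and RGS8 belong to the small RGS proteins of the R4 subfamily, which consist of little more than the RGS domain. RGS18 is best known from platelets and megakaryocytes, RGS16 from lymphocytes, where it restrains the response to chemokines, and RGS8 from neurons.

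In the authors' deposited table the 4 genes are placed in 3 chromosome bands. Cxcr5 lies on chromosome 9 in band A5.2, Rgs18 on chromosome 1 in band F, and Rgs16 and Rgs8 both on chromosome 1 in band G3. In the RefSeq gene order of GRCm38.p6, Rgs8 and Rgs16 were direct neighbours among protein-coding genes and were read from the same strand. The start of Rgs16 lay 87.3 kb downstream of the first of the 3 Rgs8 starts and 74.7 kb downstream of the last. Rgs18 was preceded there by Rgs2, Rgs13, Rgs1 and Rgs21, other R4 genes, none of which had a named row. Of the 8 nearest protein-coding genes of Rgs18 and of Cxcr5, 4 on each side, the table named 0, and of those of Rgs16 and of Rgs8 it named only the other member of that pair.

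Because Rgs16 and Rgs8 are neighbours that were both lower with tamoxifen, the 250 bases before each of their starts are shown, from RefSeq on GRCm38.p6. No such window was available for Rgs18 or Cxcr5, so the bases before their starts were not examined. Capitals mark each match to AATC, the core of the sequence that the zinc fingers of Gfi1 proteins bind, on either strand, so that a match on the other strand reads GATT. The windows, all on the plus strand, are chr1:153740103-153740352 for Rgs16, and chr1:153652787-153653036, chr1:153665024-153665273 and chr1:153665423-153665672 for the 3 starts of Rgs8.
Rgs16: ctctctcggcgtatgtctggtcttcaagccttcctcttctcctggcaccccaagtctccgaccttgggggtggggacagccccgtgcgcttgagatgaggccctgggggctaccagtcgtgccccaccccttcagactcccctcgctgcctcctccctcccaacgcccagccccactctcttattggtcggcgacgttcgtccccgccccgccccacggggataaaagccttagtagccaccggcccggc
Rgs8, start 1: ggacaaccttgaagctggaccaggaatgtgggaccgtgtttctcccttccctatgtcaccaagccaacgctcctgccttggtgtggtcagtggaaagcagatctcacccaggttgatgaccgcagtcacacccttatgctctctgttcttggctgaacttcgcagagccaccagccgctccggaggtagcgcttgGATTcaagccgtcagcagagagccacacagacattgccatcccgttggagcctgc
Rgs8, start 2: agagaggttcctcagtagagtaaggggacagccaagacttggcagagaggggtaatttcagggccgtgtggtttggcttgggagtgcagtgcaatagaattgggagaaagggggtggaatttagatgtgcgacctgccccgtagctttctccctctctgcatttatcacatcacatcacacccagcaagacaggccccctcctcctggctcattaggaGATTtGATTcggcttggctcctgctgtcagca
Rgs8, start 3: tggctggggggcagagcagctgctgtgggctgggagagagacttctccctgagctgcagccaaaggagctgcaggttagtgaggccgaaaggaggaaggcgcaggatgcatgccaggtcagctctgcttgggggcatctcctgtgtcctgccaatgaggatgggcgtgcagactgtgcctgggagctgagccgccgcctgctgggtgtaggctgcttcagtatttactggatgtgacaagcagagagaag

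The Rgs16 window held 0 matches to AATC and the 3 Rgs8 windows held 1, 2 and 0. All 3 matches were on the other strand, 55 bases before start 1 and 32 and 27 bases before start 2. Such a short word is common: of 32851 RefSeq windows of the same length 69.0% held at least 1 match and 38.7% at least 2. The longer word AATCAC, searched on both strands and always holding an AATC, was in none of these 4 windows and in 9.14% of all windows. Base composition set Rgs16 somewhat apart from its neighbour. Its window was 66.4% G and C with 17 CpG dinucleotides, against 57.2%, 53.2% and 60.8% and 9, 4 and 5 CpGs in the Rgs8 windows, beside medians of 52.4% and 6 over all windows. Which Rgs8 start these cells use was not measured.

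Values below are log2 expression as deposited, so that a difference of 1 is a 2-fold change. The array medians lay between 7.52 and 7.56 with tamoxifen and between 7.53 and 7.61 in untreated cells. The precision of every value is limited by the 3 arrays per group, and levels of different probe sets are not set against each other. Fewer cells that express a gene and less RNA per cell cannot be told apart in such bulk samples.

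Cxcr5, the receptor, was the 1 member that was higher with tamoxifen. Its log2 value was 7.90, 7.77 and 7.98 in tamoxifen replicates 1, 2 and 3, against 6.74, 6.91 and 6.93 in untreated replicates 1, 2 and 3 (probe set 10592888). The groups did not overlap, and the lowest tamoxifen array lay 0.85 above the highest untreated one. The means were 7.88 ± 0.10 with tamoxifen and 6.86 ± 0.10 in untreated cells (SD, n = 3 each). The log2 fold change was 1.02 ± 0.083 (SE), or 2.03-fold. All 3 tamoxifen arrays were above their array's median for Cxcr5, whereas all 3 untreated arrays were below theirs and none was below its lower quartile. Without a measure of background, how far the untreated level stands above it is not known. In the authors' deposited table Cxcr5 has a fold of 2.04 and a p-value of 0.000270, and its fold ranks 17 of 102 among the higher rows.

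Rgs18 had by far the largest difference of the 3 RGS genes. It stood at 9.10, 8.89 and 9.26 in the 3 tamoxifen replicates, against 10.88, 11.09 and 10.95 in the 3 untreated ones (probe set 10358421). Every tamoxifen array was at least 1.62 below every untreated array. Its mean was 9.08 ± 0.19 with tamoxifen and 10.97 ± 0.11 without (SD, n = 3 each). Its log2 fold change was -1.89 ± 0.11 (SE), which left 27.0% of the untreated level. Even so, all 3 tamoxifen arrays stayed above their array's median for this gene, and the untreated arrays were above their upper quartile. The authors' deposited table gives it a signed fold of -3.72, in which the minus sign marks a fall, with a p-value of 0.000106, rank 10 of the 149 lower rows.

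Rgs16 and Rgs8, the neighbours on chromosome 1, had smaller differences of like size. Rgs16 was at 8.32, 8.52 and 8.34 with tamoxifen and at 9.03, 9.25 and 9.18 in untreated cells (probe set 10350733). Rgs8 was at 8.54, 8.61 and 8.47 with tamoxifen and at 9.22, 9.39 and 9.06 in untreated cells (probe set 10350725). Neither gene's groups overlapped, with gaps of 0.51 for Rgs16 and 0.45 for Rgs8. For Rgs16 the means were 8.39 ± 0.11 with tamoxifen and 9.15 ± 0.11 in untreated cells, a log2 fold change of -0.76 ± 0.087 (SE), leaving 59.1% of the untreated level. For Rgs8 they were 8.54 ± 0.070 with tamoxifen and 9.22 ± 0.16 in untreated cells, a log2 fold change of -0.68 ± 0.094 (SE), leaving 62.4% (SD, n = 3 each). In all 6 arrays both genes were between the array's median and its upper quartile. The authors' deposited table has signed folds of -1.70 for Rgs16 and -1.60 for Rgs8, with p-values of 0.00107 and 0.00269, ranks 84 and 109 of 149 and not far from its lower limit of fold.

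**Figure D1:**
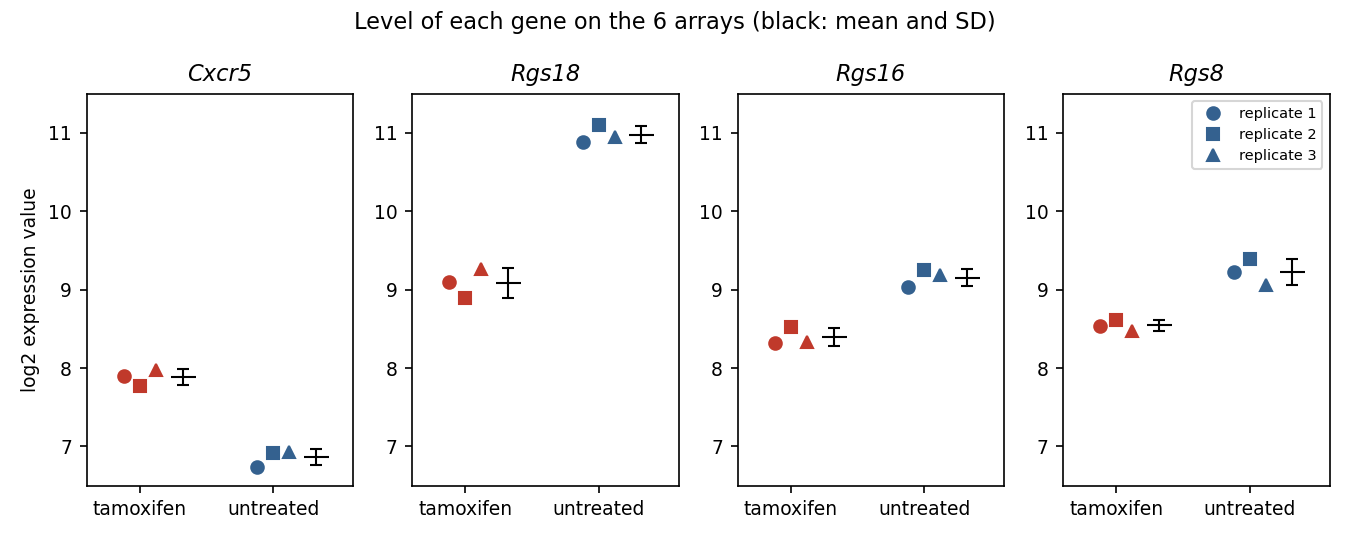
Log2 expression of Cxcr5, Rgs18, Rgs16 and Rgs8 on each of the 3 tamoxifen arrays (red, left) and 3 untreated arrays (blue, right), with marker shape for the replicate number and the mean and SD in black. Cxcr5 is higher with tamoxifen and the 3 RGS genes are lower, with no overlap between groups in any panel; heights are not comparable between panels.

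In a limma fit over all 35557 probe sets, all 4 members were past an adjusted p of 0.05, Cxcr5 among the 154 higher probe sets (0.433% of those tested) and the 3 RGS genes among the 162 lower ones (0.456%). Groups that do not overlap, as in all 4 members, were seen with tamoxifen higher in 10.5% and with tamoxifen lower in 7.78% of all probe sets. Since the members were chosen by this same contrast, nothing is read from these counts. Rgs18 alone passed in each of the 6 fits that left out 1 array. Cxcr5 passed in 4 of these 6 fits, failing without tamoxifen replicate 1 and without tamoxifen replicate 3. Rgs16 and Rgs8 each passed in 1 of the 6, the fit without untreated replicate 2.

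Set side by side, Cxcr5 was higher and the 3 shut-off genes were lower with tamoxifen, which their choice had fixed. The log2 fold change was 1.02 for Cxcr5, against a mean of -1.11 for the 3 RGS genes, a difference of 2.13. Array by array, Cxcr5 minus the mean of the 3 RGS genes, set to 0 at the untreated mean, was 2.17, 2.02 and 2.21 with tamoxifen and -0.045, -0.073 and 0.12 in untreated cells. The spread within groups of this contrast was 0.10 (pooled SD). Against single RGS genes the difference in log2 fold change was 2.91 for Rgs18, 1.78 for Rgs16 and 1.70 for Rgs8. In size on the log2 scale the change of Rgs18 was 1.85 times that of Cxcr5, that of Rgs16 was 0.742 times and that of Rgs8 was 0.666 times. No test is given for any of these differences, because the same contrast chose the genes.

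**Figure D2:**
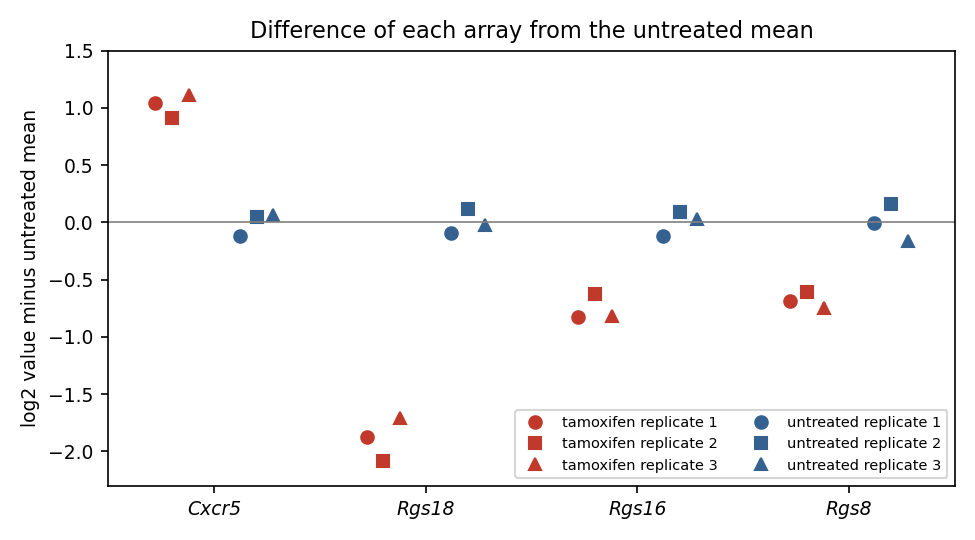
Difference of each array from the gene's untreated mean (log2), with tamoxifen arrays in red on the left of each gene and untreated arrays in blue on the right. The tamoxifen arrays of Cxcr5 lie above 0 and those of the RGS genes below it, farthest for Rgs18, whose log2 fold change was -1.89.

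The RGS genes differed among themselves in size. The log2 fold change of Rgs18 minus that of Rgs16 was -1.13 and minus that of Rgs8 was -1.21, with pooled within-group SDs of these contrasts of 0.21 and 0.20. For Rgs16 minus Rgs8 it was -0.08, smaller than the 0.12 spread of that contrast within groups. The neighbours had the closest profiles of any 2 members, as their like fold changes would give. Their root mean square distance over the 6 arrays was 0.11 log2 units, after each gene was centred on its own mean. Other named genes lay closer to each of them, such as Fetub to Rgs8 at 0.024 and Ighv1-72 to Rgs16 at 0.046. The distances of Rgs18 from Rgs16 and Rgs8 were 0.59 and 0.63.

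Within a group the members did not all move alike. Among the tamoxifen arrays, replicate 2 was the lowest for Cxcr5 and Rgs18, 0.11 and 0.19 below the group mean, and the highest for Rgs16 and Rgs8, 0.13 and 0.07 above it. Untreated replicate 2 was the highest untreated array for all 3 RGS genes, by 0.12 for Rgs18, 0.092 for Rgs16 and 0.16 for Rgs8 above the mean. Each of these deviations was smaller than the smallest change between any 2 arrays of different groups, which was -0.45, for Rgs8. For that gene the untreated arrays alone ranged from 9.06 to 9.39. The arrays as a whole also differ in a way that crosses the groups only in part. The 6667 probe sets numbered below the table's lowest had medians of 7.53, 7.31 and 7.48 in tamoxifen replicates 1, 2 and 3. In untreated replicates 1, 2 and 3 they were 7.26, 7.50 and 7.27. Replicate 2 thus runs the other way from replicates 1 and 3 in that block. Whole-array medians split the arrays likewise, in the opposite sense. They were 7.54, 7.56 and 7.52 in tamoxifen replicates 1, 2 and 3, against 7.61, 7.53 and 7.60 in the untreated ones. In replicates 1 and 3 these differences run along with the treatment, and their part in the members' changes was not tested. With both arrays of replicate 2 left out, the log2 fold changes were 1.10 for Cxcr5, -1.73 for Rgs18, -0.78 for Rgs16 and -0.64 for Rgs8.

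**Figure D3:**
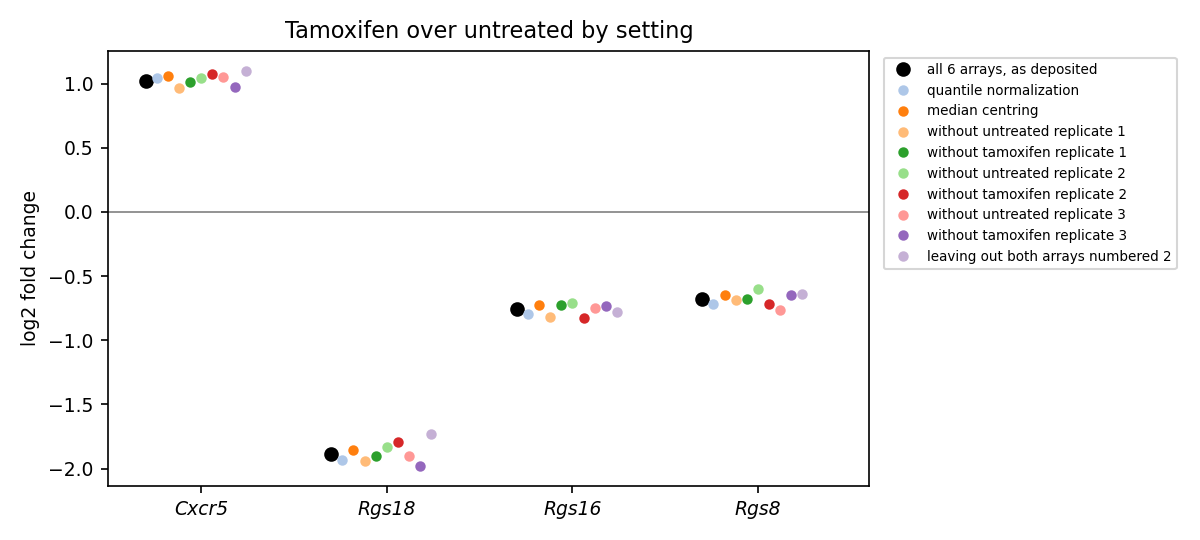
Log2 fold change of each member, tamoxifen over untreated, with all arrays as deposited (black) and under other scalings or with arrays left out (colours). Cxcr5 stays between 0.96 and 1.10 and Rgs18 between -1.98 and -1.73, while Rgs16 and Rgs8 lie between -0.82 and -0.60.

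Other parts of the same signalling route were looked for in 9 gene lists of chemokine receptors and ligands, RGS genes, G protein subunits, receptor kinases and arrestins, effectors, positioning receptors and adhesion molecules. Besides the members, 9 of their 183 genes had a named row, of which 1 rose and 7 fell past an adjusted p of 0.05 (limma over all probe sets), with a median log2 fold change of -0.92. Over all 225 named genes 66 rose and 102 fell past it, with a median of -0.63. The authors selected all of these for their change on these same arrays. The lists were also chosen with earlier results of these data known, so nothing is read from these counts. Cxcr5 was the 1 chemokine receptor of 24 with a named row, and no chemokine ligand of 23 had one. Of the 10 R4 genes only the 3 members were named, and of 12 RGS genes of other subfamilies 0. Genes without a named row were not analysed here, so their levels are not known from these values.

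Both G protein subunits with a named row passed, in opposite directions. Gna15, the Gq-class alpha subunit of blood cells that couples to many different receptors, stood at 10.42, 10.40 and 10.20 with tamoxifen and at 9.39, 9.35 and 9.15 in untreated cells. It rose by 1.04 ± 0.096 (SE) on the log2 scale (limma adjusted p = 0.014), close to the size of the Cxcr5 difference. Gnb4, a beta subunit, stood at 8.53, 8.45 and 8.44 with tamoxifen and at 9.42, 9.37 and 9.26 in untreated cells, and fell by 0.88 ± 0.068 (SE) on that scale (limma adjusted p = 0.0074). Neither subunit's groups overlapped. From the list of receptor kinases and arrestins, Arrdc3, an arrestin-related adaptor, fell by 0.73 ± 0.098 (SE) on the log2 scale, with a limma adjusted p of 0.035. No adenylyl cyclase, phospholipase C beta, PI3K gamma or other effector among 35 listed had a named row.

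Of 28 other G protein-coupled receptors listed for cell migration or positioning 5 had a named row. Past the threshold 4 of these fell, beside 102 of all 225 named genes. As this list too was chosen with earlier results known, nothing is read from that count. P2ry10 and Gpr174, receptors for lysophosphatidylserine, had log2 fold changes of -1.74 ± 0.071 and -1.18 ± 0.14, and Lpar6, a receptor for lysophosphatidic acid, one of -1.37 ± 0.092 (SE). P2ry13, an ADP receptor that couples to Gi, had one of -0.92 ± 0.11, from means of 6.86 with tamoxifen and 7.79 in untreated cells. The largest limma adjusted p of these 4 was 0.025. Ptgir, the prostacyclin receptor, with a log2 fold change of 0.72 ± 0.14, missed the threshold (limma adjusted p = 0.088). Of the adhesion list, Cd53, a tetraspanin, fell, with a log2 fold change of -2.26 ± 0.17 (limma adjusted p = 0.0067). Of the 8 listed genes that passed besides the members, Cd53, P2ry10 and Lpar6 also passed in all 6 fits without 1 array. Gnb4 passed in 5 of these fits, Gna15 in 2, and Arrdc3, Gpr174 and P2ry13 in 1 each.

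**Figure D4:**
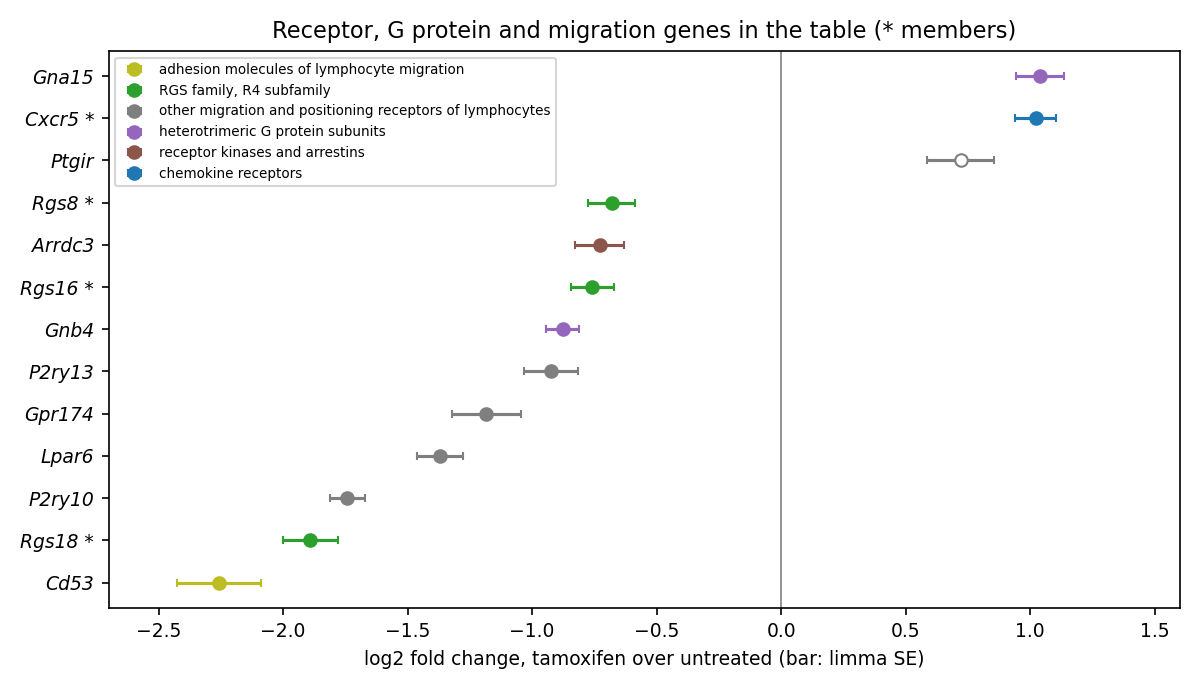
Log2 fold change, tamoxifen over untreated, of the 4 members (marked by a star) and the 9 other listed genes with a named row, with limma standard errors; colour gives the list, and the open symbol did not pass an adjusted p of 0.05. Cxcr5 and Gna15 stand at 1.02 and 1.04, and the RGS genes at -1.89 (Rgs18), -0.76 (Rgs16) and -0.68 (Rgs8).

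The genes closest in pattern were sought among 208 other named genes of the table, by the root mean square distance between the 6 centred log2 values. All of these were selected for a change between the groups, so that a small distance asks first for a change of like direction and size. Nearest to Cxcr5 were Prdm1, the repressor Blimp-1 of plasma cells, at 0.092 log2 units, Hepacam2 at 0.094 and Csprs at 0.11. Nearest to Rgs18 were the recombinase gene Rag2 at 0.090, P2ry10 at 0.13 and Milr1, an inhibitory receptor of mast cells, at 0.14. Rgs16 was nearest to the immunoglobulin heavy chain segment Ighv1-72 at 0.046, the sodium channel gene Scn8a at 0.069 and the collagen-modifying enzyme gene Plod2 at 0.073. Rgs8 had the tightest matches, with Fetub, a secreted plasma protein, at 0.024, a heavy chain variable segment (probe set 10403021) at 0.029 and the carbohydrate kinase gene Fggy at 0.049. Each of these was closer to Rgs8 than Rgs16 was.

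**Figure D5:**
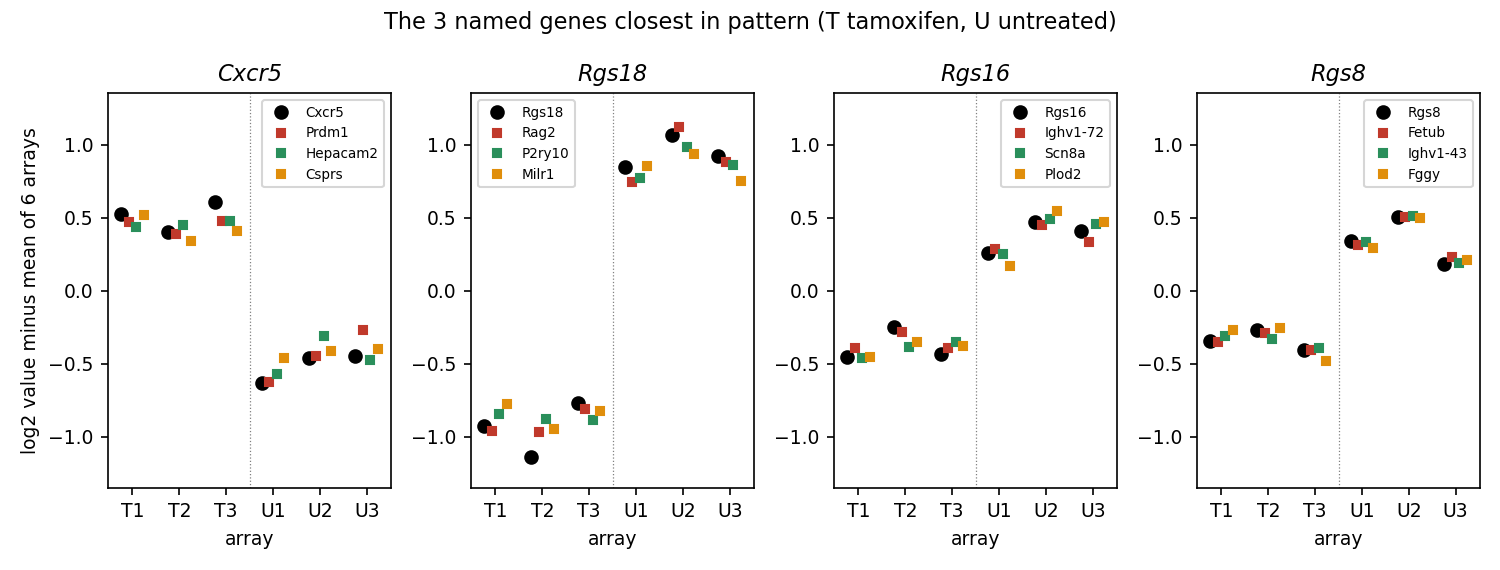
Log2 values of each member (black circles) and of its 3 nearest named genes (coloured squares) on the tamoxifen arrays T1 to T3 and the untreated arrays U1 to U3, each gene centred on its mean of 6 arrays. The neighbours of Rgs8 nearly coincide with it, at distances of 0.024 to 0.049, whereas Rgs18 on array T2 lies below all 3 of its neighbours.

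The labelled cell type could not be tested by its markers, since few of them had a named row. The authors had selected each such row for a change between these same groups. Of 15 genes of pro-B and pre-B cells 3 were named, with means of 9.06 and 11.34 for Rag1, 6.89 and 8.72 for Rag2 and 12.35 and 11.70 for Cd79b in tamoxifen and untreated cells. Their summed linear values ranged from 5527 to 6260 with tamoxifen and from 6175 to 6689 without. Such sums weigh the brightest probe sets most. They add Rag1 and Rag2, with log2 fold changes of -2.28 and -1.83, to Cd79b, with 0.65, and so show no marker's own change. Of 12 erythroid and megakaryocyte markers, which include those of cells rich in RGS18, 0 were named. For mature B cells, where Cxcr5 is normally found, 3 of 9 were named. Their sums ranged from 794 to 909 with tamoxifen and from 688 to 736 without. These sums mix opposite changes, with log2 fold changes of -2.05 for Fcrl1, 1.42 for H2-DMb2 and 0.68 for Cd55. Sums for the 2 of 6 plasma cell markers, Prdm1 and Xbp1, ranged from 5902 to 6206 with tamoxifen and from 3689 to 4267 without. The ranges for the 2 of 11 myeloid markers, Lyz1 and Lyz2, were 847 to 1012 with tamoxifen and 414 to 455 without, and for the 2 of 10 T cell markers, Tcf7 and Zap70, 495 to 526 with tamoxifen and 291 to 308 without. As the named markers were selected on this contrast, nothing is read from sums that differ between the groups. Among these markers, Cd55 and Zap70 missed the threshold of the fit over all probe sets (limma adjusted p = 0.101 and 0.0784). Without a measure of background, whether each named marker was expressed is not known. The markers' part in the changes of Cxcr5 and the RGS genes was not tested.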

How the data were processed

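Total RNA of 3 tamoxifen and 3 untreated cultures was labelled with biotin, per the labels' protocols, for one-colour arrays, which were grouped by title. The authors deposited log2 expression values for 35557 probe sets. The submitters' processing notes name Partek without a version. Background correction, normalization and array design were not given in the sources used here. Base 2 of the logarithm was settled from the data: differences of group means were within 0.021 of the log2 of the folds. The authors' deposited table holds a p-value, with no adjustment stated, and a signed fold, here a score in which -n marks a fall by n-fold, and its test was not given in the sources used here.

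Values were tested as deposited with limma 3.58.1 in R 4.3.3 (lmFit, eBayes, no covariate), adjusted by Benjamini-Hochberg across all probe sets. The procedure was tested on simulated data with independent noise for each probe set and array, so shifts shared by probe sets were not covered. p-values measure only the spread between these arrays. Table rows were given current symbols through RefSeq accessions, gene numbers, symbols or synonyms, and a gene with several probe sets stood by the brightest. Named genes were the 4 members, up to 6 listed genes per list by size of change, and the 3 nearest in pattern per member. The members and all lists were chosen with earlier results of these data known, and 1 listed gene is not reported here and was left out of the list counts. Alternatives were a replicate block, quantile normalization, median centring, leaving out dim or low-numbered probe sets, an intensity trend, another threshold and arrays left out. Plots were made with matplotlib 3.10.9 (Python 3.11.15).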

Additional observations from a re-analysis of the deposited data

How the results depend on the processing

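No member changed direction under any alternative run, which shows little for genes chosen on this contrast. The difference between the Cxcr5 change and the mean RGS change moved by less than the spread between arrays in each scaling and each fit with arrays left out, and of the members' log2 fold changes only that of Rgs18 moved by more, to -1.73 without both arrays numbered 2. Each member has 1 row in the authors' table, so the planned mean over probe sets could not be run; other probe sets of these genes, if any, have no name here. Cxcr5 could not be called without dim probe sets, since its own mean lies in the dim part. Counts of calls changed much more. Another threshold differs by construction, and for the other settings the cause was not tested. Where 154 higher and 162 lower probe sets were called, leaving out dim probe sets gave 515 and 342, an intensity trend with robust prior 410 and 311, leaving out the low-numbered block 332 and 308, a threshold of 0.1 gave 364 and 294, and leaving out both arrays numbered 2 gave 247 and 85. Lower calls were 309 with quantile normalization and 104 with median centring, and the balance of higher to lower was then 212 to 309 and 130 to 104. Fits without 1 array gave 9 to 278 higher and 28 to 136 lower calls, and 1 to 4 called members. The 278, the 136 and the 4 all came from the fit without untreated replicate 2. Rgs8 also lost its call with median centring and without both arrays numbered 2. Numbers of replicates are shared between groups, but across probe sets the arrays of one number had deviations from their group means that correlated at -0.229, -0.45 and -0.0957, so the numbers were not taken to pair the arrays. A replicate block in the fit left 6 higher and 16 lower calls, and 1 member, Rgs18, together with 2 of the 8 other listed genes that had passed, Cd53 and P2ry10. No background measure was used here, so how far dimness limits the untreated Cxcr5 level is unknown.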
